A study of Homo sapiens with 6 samples.

Results

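Immediate early genes are transcribed within minutes of a growth signal, and the genes of the ERK feedback loop are switched on by the same kinase cascade that they then restrain. A set of 31 such genes was followed in A549 cells after induction of NME2. The set is a list of gene symbols, with no measured value in its rule, although it was drawn up when earlier results of these data were known. It held 9 AP-1 and related basic leucine zipper factors, 11 other transcription factors, 4 other immediate early products, 2 mRNA decay factors and 5 inhibitors of ERK signalling. A probe under the gene's symbol was found for 30 of the 31 genes, EGR2 being the exception. The probes of EGR3 and NR4A1, 2 for each gene, were detected on none of the 6 arrays. The other 28 genes passed the filter on dim probes (detection p-value under 0.05 on at least 3 of 6 arrays) and stood among 11358 genes tested. All 28 were detected on every array, except DUSP4, which was detected on 2 of 3 NME2-induced arrays and on 3 of 3 control arrays.

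A549 is a human lung adenocarcinoma cell line. In the NME2-induced group the cells had been transfected with pcDNA-NME2-MYC, a plasmid for MYC-tagged NME2, and in the control group with pcDNA-MYC. RNA of each group was taken 48 h after transfection and hybridized to Illumina Human HT-12 v4 arrays, with 3 biological replicates per group. NME2 transfers phosphate between nucleotides and can also bind DNA, and the comparison asks how transcript levels differ once it is induced. The RNA came from whole cultures, so that a small difference in all cells and a larger one in a transfected fraction cannot be told apart, nor can fewer cells of a kind and less RNA per cell.

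In the ERK cascade, receptors at the cell surface act through RAS, RAF and MEK kinases to switch on ERK. ERK phosphorylates ternary complex factors, which sit with SRF on CArG boxes in promoters, and through downstream kinases also CREB and related factors, which bind the cyclic AMP response element. Transcription of FOS, EGR1 and their relatives then starts without new protein synthesis, and their products carry the signal to a later wave of genes. The response is short in most cells, since DUSP phosphatases and Sprouty proteins shut the cascade down and since proteins such as ZFP36 speed the decay of the early mRNAs.

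The sites named above can be read in the reference promoters of several of these genes. In RefSeq promoters of GRCh38.p14, which span 250 bases before to 50 bases after a transcription start, 24 of the 31 genes had an entry, and CCN1, DUSP4, DUSP5, EGR3, FOSL1, KLF10 and NR4A2 were without one. Motifs were searched on both strands, and a gene counted once if any of its listed promoters held the motif. The shares of all promoters count each promoter instead, so they cannot be set directly against the counts of genes. A CArG box lay in the promoters of EGR1, EGR2 and SRF, 3 of 24 genes, and in 1.29% of the 35116 promoters in the reference. The full cyclic AMP response element, TGACGTCA, lay in those of JUND, MAFF and ZFP36L1, against 1.85% of all promoters. The AP-1 letters TGANTCA occurred in FOSL2 alone, 5 bases after the start, against 7.71% of all promoters. The EGR letters GCGTGGGCG (0.795% of all promoters) and the ETS letters CCGGAAGT (4.14%) were in none of the 24. No base is shared between matches of different motifs in these promoters. The stretches around the CArG boxes and the response elements of the genes tested are shown 5′ to 3′ on the strand of the gene, with the matched letters in capitals, because they are the sites through which the cascade described above is known to act. A match is a description of the letters and not evidence of binding. Bases outside this window were not searched, so a gene without a match here may have one farther from its start.
EGR1, chr5:138465359-138465420, plus strand, 120 to 59 bases before the start: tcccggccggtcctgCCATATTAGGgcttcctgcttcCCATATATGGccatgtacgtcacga
SRF, chr6:43171224-43171268, plus strand, 45 to 1 bases before the start: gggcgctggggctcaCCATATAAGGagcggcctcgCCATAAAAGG
MAFF, chr22:38201925-38201962, plus strand, 69 to 32 bases before the start: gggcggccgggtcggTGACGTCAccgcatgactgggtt
JUND, chr19:18281800-18281837, minus strand, 215 to 178 bases before the start: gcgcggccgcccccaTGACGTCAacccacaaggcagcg
ZFP36L1, chr14:68793446-68793483, minus strand, 67 to 30 bases before the start: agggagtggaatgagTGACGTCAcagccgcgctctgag

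Values are log2 intensities after background correction and quantile normalization, and every difference is the NME2-induced mean minus the control mean, with the moderated standard error (SE) of limma and its 2-sided p. Adjusted p-values are by Benjamini-Hochberg over all 11358 genes. Between 19043 and 20047 probes were detected on an NME2-induced array and between 19916 and 20726 on a control array. The probe read for NME2 averaged 8.35 ± 0.11 in NME2-induced cells and 7.32 ± 0.03 in controls (SD, n = 3 each; adjusted p = 0.00642, limma), whereas the brightest probe of the NME1-NME2 readthrough gene averaged 10.69 ± 0.07 and 12.67 ± 0.10 (adjusted p = 1.54e-04). The second NME1-NME2 probe differed by −1.89. Of the other detected NME2 probes, 1 differed by −0.59 and 1, with overlapping groups, by 0.26. The probes of this locus thus did not all point the way of the label, and its largest differences, on the readthrough probes, ran against it. The directions given here follow the labels. Of the epithelial markers KRT8, KRT19, EPCAM and CDH1 were detected and KRT18 was not. The 4 endothelial markers, the fibroblast genes COL3A1, DCN and PDGFRB and the leukocyte genes PTPRC, CD3E, TYROBP and LYZ were detected on too few arrays to be tested. The leukocyte genes CD14 (0.23) and CD68 (0.11) were tested, with adjusted p-values of 0.383 and 0.536 (limma), and their NME2-induced arrays lay above the controls, but their part in the results that follow was not tested. On the first principal component, which separated the groups and held 32.6% of the variance, NME2-induced replicate 3 lay at 16.4, beyond replicates 1 and 2 at 5.62 and 8.02, and the controls between −11.2 and −8.44.

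None of the 28 genes passed the adjusted threshold of 0.05 in either direction, where 0.158% of all genes tested passed as higher and 0.088% as lower in NME2-induced cells. The smallest adjusted p was 0.107 (limma), for IER2. At an unadjusted p under 0.05, 9 genes were higher, or 32.1% of the 28, against 7.3% of all genes tested. They were IER2, SRF, ZFP36, FOSB, CCN1, KLF4, SPRY4, ATF3 and MAFF. With the mean of the detected probes of a gene in place of the brightest, 7 were higher, without KLF4 and MAFF, against 7.12% of all genes tested. The only gene lower at that level was KLF10, 3.57% of the 28 against 7.17% of all genes. The values of the groups did not overlap for 13 genes with all NME2-induced arrays higher and for 2 with all of them lower, where 11.3% and 10.7% of all genes tested did so. The mean was higher in NME2-induced cells for 19 genes, or 67.9%, against 50.3% of all genes tested, and lower for 9.

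The differences were small. They ran between −0.39 and 0.44 on the log2 scale with a median of 0.15, beside a median of 0.00 over all genes tested, and the median SE of the 28 was 0.10. When each array was set against the control mean gene by gene, the 28 genes averaged 0.15, 0.12 and 0.09 on the 3 NME2-induced arrays and between −0.01 and 0.01 on the 3 control arrays. The control values of each gene cancel over the 3 control arrays by construction, so the balance of the control averages is not a finding. The medians of the 28 genes were 0.158, 0.0865 and 0.0923 on the NME2-induced arrays. On the same scale the median of all genes lay between −0.00406 and 0.00964 on every array. Of the 28 genes, 19, 19 and 20 were above the control mean on the NME2-induced arrays, and 11, 18 and 13 on the control arrays. The map of the genes by array shows that the shift was not shared evenly, since FOSB was highest on the array of NME2-induced replicate 2 and ZFP36 and MAFF on that of replicate 1.

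**Figure D1:**
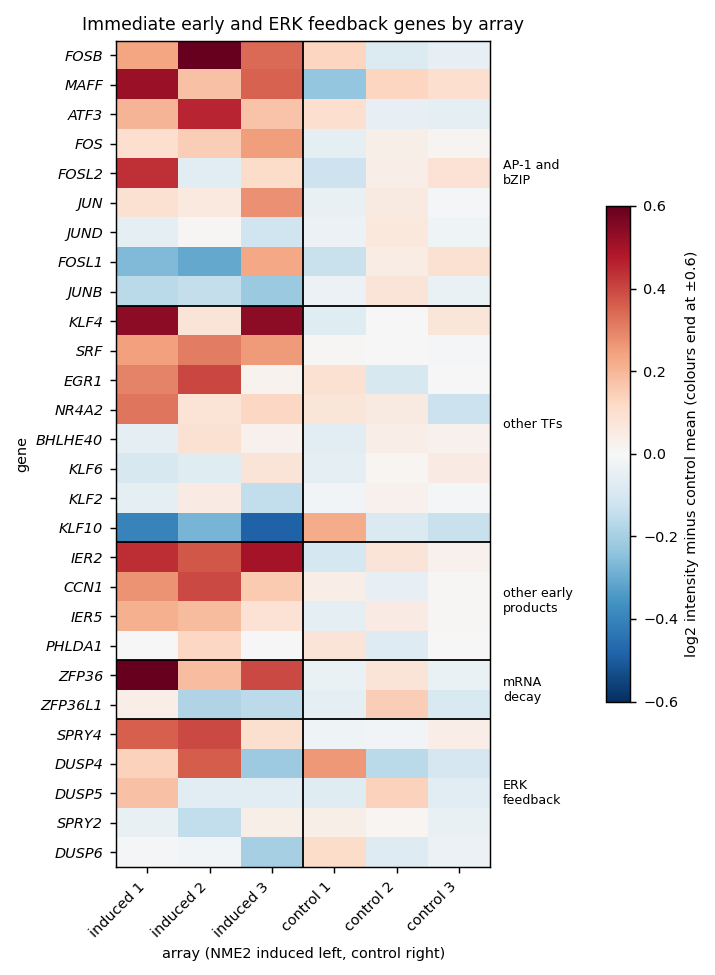
Log2 intensity of the 28 tested genes (rows, by role) on each array (columns, 3 NME2-induced left of 3 control arrays) minus the mean of the control arrays, with colours ending at ±0.6. Most rows are red on the NME2-induced arrays, JUNB and KLF10 are blue on all 3 of them, and the lower rows of the ERK feedback group are mixed.

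AP-1 is a dimer of FOS and JUN proteins, and MAFF and ATF3 are smaller relatives that pair with other leucine zipper proteins or repress. Of these 9 genes, 6 (66.7%) had a higher mean in NME2-induced cells, against 50.3% of all genes tested. At an unadjusted p under 0.05, 3 (33.3%) were higher, against 7.3% of all genes tested, and the median difference was 0.16. FOSB, a paralog of FOS, stood at 6.03, 6.42 and 6.13 in NME2-induced cells, against 5.92, 5.71 and 5.75 in controls. All NME2-induced arrays were above all control arrays, with the lowest of them close to control replicate 1. The difference was 0.40 ± 0.12 (SE; adjusted p = 0.223, limma).

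ATF3, a stress-induced member of the CREB and ATF family, had values of 9.68, 9.93 and 9.65 in NME2-induced cells and of 9.57, 9.42 and 9.42 in controls. The groups did not overlap, and NME2-induced replicate 2 was the highest array. The difference was 0.28 ± 0.10 (SE; adjusted p = 0.296, limma). MAFF, a small MAF protein without an activation domain, stood at 8.41, 8.07 and 8.25 in NME2-induced cells, against 7.66, 8.02 and 7.996 in controls. Control replicate 1 was the low array here, while the other control arrays came near to NME2-induced replicate 2. The difference was 0.35 ± 0.13 (SE; adjusted p = 0.299, limma).

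MAFF, whose promoter element is printed above, was read by 3 detected probes. The second probe had 7.41, 7.71 and 7.52 in NME2-induced cells and 7.31, 7.46 and 7.45 in controls, a difference of 0.14. The third had 6.84, 5.75 and 6.67 in NME2-induced cells and 6.50, 5.65 and 6.67 in controls, a difference of 0.15, and was lowest on replicate 2 of both groups. All 3 probes had a higher mean in NME2-induced cells, and the groups overlapped for both of the dimmer ones.

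FOS, the founding member of the family, had 6.49, 6.54 and 6.64 in NME2-induced cells, against 6.34, 6.43 and 6.41 in controls. The groups did not overlap, yet the difference of 0.17 had a 95% interval of −0.02 to 0.36 (adjusted p = 0.399, limma). JUN, its most common partner, differed by 0.14 ± 0.09 (SE), and its lowest NME2-induced value of 9.918 was barely above the highest control value of 9.916. JUNB, which can oppose JUN, was the one AP-1 gene whose arrays lay wholly below the controls, with 7.59, 7.61 and 7.53 in NME2-induced cells and 7.71, 7.83 and 7.71 in controls. Its difference was −0.18 ± 0.08 (SE; adjusted p = 0.366, limma). The groups overlapped for FOSL2 (0.16), JUND (−0.06) and FOSL1 (−0.11), and for FOSL1 the arrays of NME2-induced cells were spread over 5.92 to 6.46, on either side of the control values of 6.09 to 6.32. JUND, whose promoter held a cyclic AMP response element as that of MAFF did, had a 95% interval of −0.24 to 0.13.

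**Figure D2:**
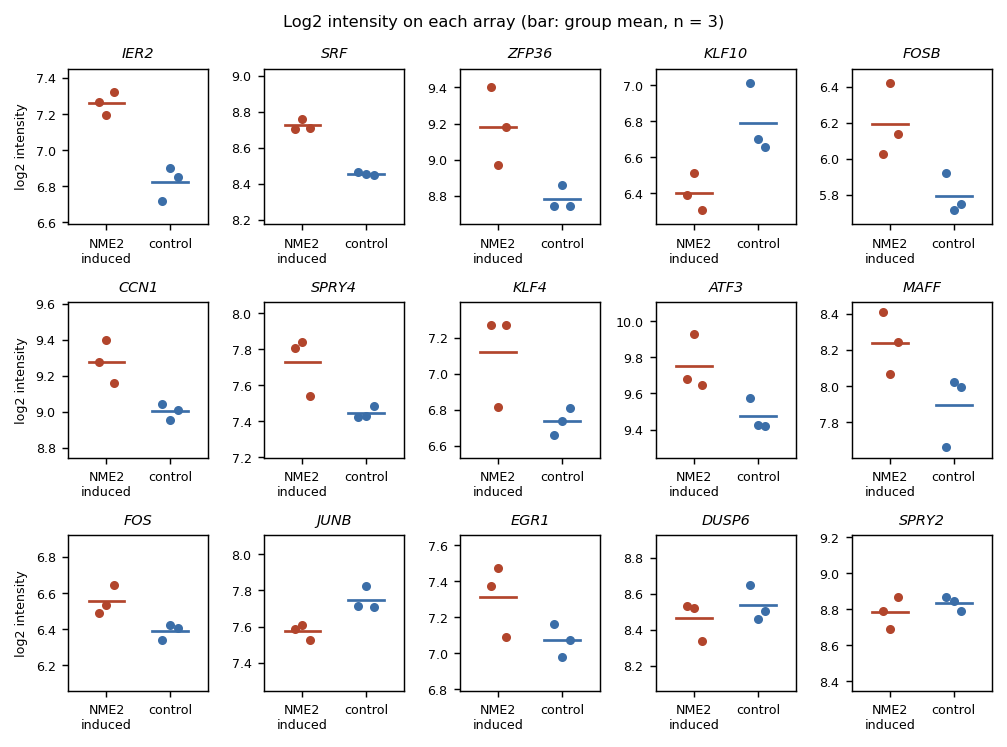
Log2 intensity on each array (points; bars are means of 3) of 15 genes, NME2-induced cells left of controls in each panel, with a separate vertical axis per gene that does not start at 0. The SRF arrays are the most tightly grouped, IER2, SRF and KLF10 are clearly apart, and the groups overlap for EGR1, DUSP6 and SPRY2.

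Among the other transcription factors the differences went both ways, with a median of 0.10 over the 8 tested genes. SRF, the factor that binds CArG boxes and has 2 of them in its own promoter, as printed above, stood at 8.71, 8.76 and 8.71 in NME2-induced cells, against 8.47, 8.45 and 8.45 in controls. Its arrays varied little within each group, with an SD of 0.03 in NME2-induced cells and of 0.008 in controls. The difference was 0.27 ± 0.07 (SE), or 1.21-fold, with a 95% interval of 0.10 to 0.44 (adjusted p = 0.191, limma). EGR1, a zinc finger factor whose promoter also has 2 CArG boxes, had 7.37, 7.47 and 7.09 in NME2-induced cells and 7.16, 6.98 and 7.08 in controls. NME2-induced replicate 3 fell within the control values, and the difference of 0.24 had a 95% interval of −0.03 to 0.51 (adjusted p = 0.392, limma).

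The Krüppel-like factors, zinc finger proteins that bind GC-rich promoters, had 4 tested genes, none of which passed the adjusted threshold. KLF10, first described as a TGF-beta inducible early gene, was the only gene of the set lower at an unadjusted p under 0.05, with 6.39, 6.51 and 6.31 in NME2-induced cells, against 7.01, 6.70 and 6.66 in controls. The difference was −0.39 ± 0.12 (SE; adjusted p = 0.221, limma). A second detected probe of KLF10 had 5.29, 5.55 and 4.92 in NME2-induced cells and 5.62, 5.95 and 5.40 in controls, a similar difference of −0.40, although its groups overlapped (adjusted p = 0.417 over all detected probes, limma).

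KLF4, a factor linked to growth arrest and epithelial identity, had probes that went apart. On the brighter probe it stood at 7.27, 6.82 and 7.27 in NME2-induced cells, against 6.66, 6.74 and 6.81 in controls, with NME2-induced replicate 2 hardly above the controls. That difference was 0.38 ± 0.14 (SE; adjusted p = 0.28, limma). On the second probe the values were 6.55, 6.20 and 6.65 in NME2-induced cells and 6.79, 6.66 and 6.45 in controls, a difference of −0.16 with overlapping groups (adjusted p = 0.662 over all detected probes, limma), and with the mean of both probes in place of the brighter the KLF4 difference was 0.11. No direction can therefore be given for KLF4. KLF6 (−0.03) and KLF2 (−0.05) had 95% intervals of −0.23 to 0.17 and of −0.25 to 0.14.

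NR4A2, an orphan nuclear receptor of the immediate early class, had 7.25, 7.01 and 7.06 in NME2-induced cells, against 7.01, 6.99 and 6.81 in controls. The groups stayed apart by a narrow margin (lowest NME2-induced value 7.012, highest control value 7.005), and the difference of 0.18 ± 0.10 (SE) did not reach an unadjusted p under 0.05 (adjusted p = 0.459, limma). Its second probe differed by 0.22 with overlapping groups. BHLHE40, a repressor that also acts in the circadian clock, differed by 0.02, with a 95% interval of −0.17 to 0.21. EGR2, the third gene with a CArG box, has no value here, and EGR3 and NR4A1 were below detection in both groups.

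**Figure D3:**
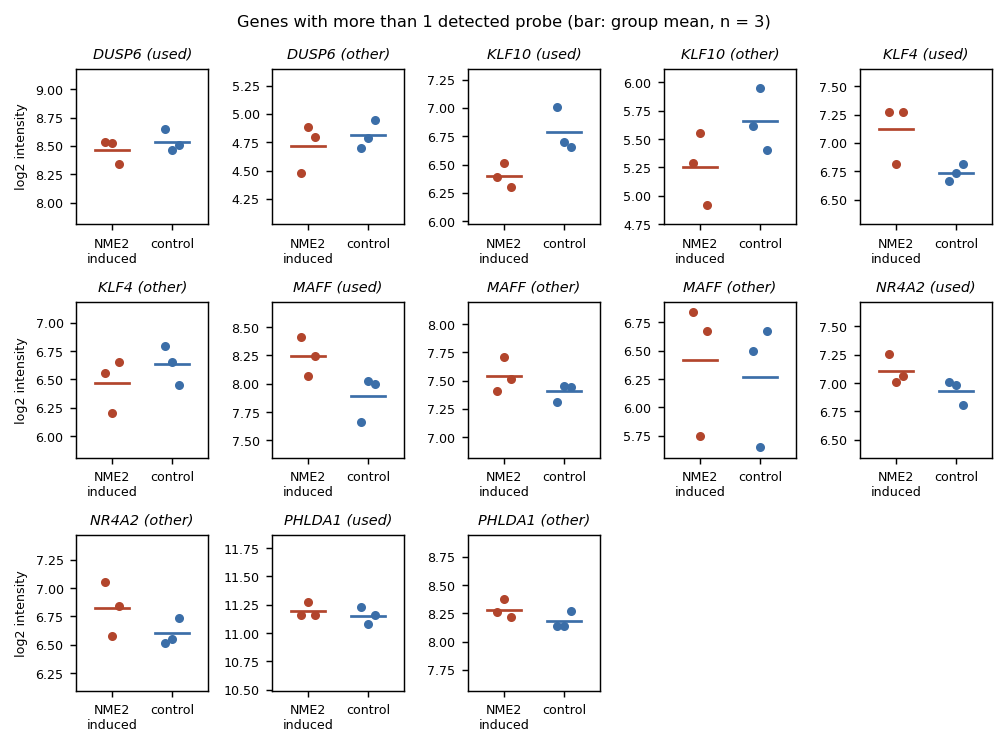
Log2 intensity on each array (points; bars are means of 3) for every detected probe of the 6 genes that have more than 1, NME2-induced cells left of controls; "used" marks the probe taken for the gene, and the vertical axes differ and do not start at 0. The probes of KLF10, MAFF, NR4A2, PHLDA1 and DUSP6 have differences of 1 sign within each gene, and those of KLF4 have opposite signs.

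The 4 other immediate early products all had a higher mean in NME2-induced cells, as 50.3% of all genes tested did, with a median difference of 0.22. IER2, a small nuclear protein of the early response, stood at 7.27, 7.19 and 7.32 in NME2-induced cells, against 6.72, 6.90 and 6.85 in controls. The gap between the groups was wider than the spread within either. The difference of 0.44 ± 0.09 (SE) was the largest of the 28 genes in size, 1.35-fold, with a 95% interval of 0.24 to 0.64 (adjusted p = 0.107, limma). With a variance trend and robust weights in limma, IER2 had an adjusted p of 0.038.

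CCN1, a secreted matrix-associated protein formerly named CYR61, had 9.27, 9.40 and 9.16 in NME2-induced cells, against 9.04, 8.96 and 9.01 in controls. The groups did not overlap, and the difference was 0.28 ± 0.09 (SE; adjusted p = 0.248, limma). IER5, a regulator of heat shock factor activity, had 10.47, 10.45 and 10.34 in NME2-induced cells and 10.20, 10.31 and 10.27 in controls, again without overlap. Its difference of 0.16 ± 0.08 (SE) missed an unadjusted p under 0.05 (adjusted p = 0.401, limma). PHLDA1, a pleckstrin homology domain protein, differed by 0.04 on 1 probe and by 0.10 on the other.

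Of the mRNA decay factors, ZFP36, known as tristetraprolin, binds AU-rich elements and recruits deadenylases. It stood at 9.40, 8.97 and 9.18 in NME2-induced cells, against 8.74, 8.86 and 8.74 in controls. NME2-induced replicate 1 was far above the controls and replicate 2 close to control replicate 2. The difference was 0.40 ± 0.12 (SE), or 1.32-fold (adjusted p = 0.22, limma), and with a variance trend and robust weights its adjusted p was 0.0158. The related ZFP36L1, whose promoter element is printed above, had 11.93, 11.71 and 11.73 in NME2-induced cells and 11.84, 12.04 and 11.80 in controls. Its groups overlapped, with a difference of −0.10 and a 95% interval of −0.34 to 0.14.

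The ERK feedback inhibitors had a median difference of 0.02. Only SPRY4 of the 5 (20%) was higher at an unadjusted p under 0.05, against 7.3% of all genes tested. SPRY4, a Sprouty protein that blocks signalling between receptor and RAF, had 7.80, 7.84 and 7.54 in NME2-induced cells, against 7.42, 7.43 and 7.49 in controls. NME2-induced replicate 3 was near the controls, and the difference was 0.28 ± 0.10 (SE; adjusted p = 0.28, limma). Its relative SPRY2 had 8.79, 8.69 and 8.87 in NME2-induced cells and 8.87, 8.85 and 8.79 in controls, a difference of −0.05 with a 95% interval of −0.25 to 0.14. DUSP6, the cytoplasmic phosphatase that removes the activating phosphates of ERK and is widely read as a gauge of its activity, had 8.53, 8.52 and 8.34 in NME2-induced cells, against 8.65, 8.46 and 8.51 in controls. The groups overlapped, with a difference of −0.07 and a 95% interval of −0.29 to 0.15 (adjusted p = 0.747, limma), and a second, dim probe of DUSP6 differed by −0.10. The nuclear phosphatases DUSP5 (0.02, 95% interval −0.23 to 0.26) and DUSP4 (0.10, 95% interval −0.30 to 0.49) also had overlapping groups.

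**Figure D4:**
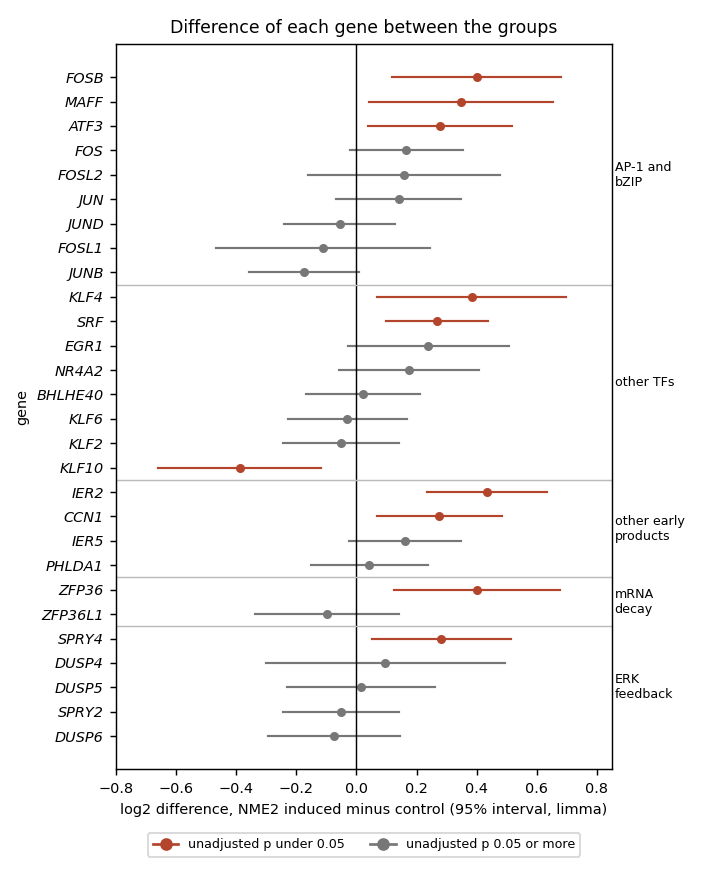
Log2 difference of each tested gene, NME2-induced minus control (points), with the 95% interval of limma (lines), by role; red marks an unadjusted p under 0.05, and no gene passed the adjusted threshold. The intervals of 9 genes lie wholly above 0 and that of KLF10 wholly below, and those of DUSP4, DUSP5, DUSP6 and SPRY2 span 0.

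The calls at an unadjusted p under 0.05 depended on single arrays, on the probe rule or on the test for several genes. IER2, SRF, ZFP36, KLF10 and FOSB kept an unadjusted p under 0.05 in all 6 fits that left out 1 array. CCN1 lost it without NME2-induced replicate 2 (0.21) and without control replicate 2 (0.25). ATF3 lost it without NME2-induced replicate 2 (0.19), control replicate 2 (0.25) or control replicate 3 (0.25). MAFF lost it without NME2-induced replicate 1 (0.26), NME2-induced replicate 3 (0.35) or control replicate 1 (0.23). SPRY4 kept it only without NME2-induced replicate 3 (0.38) or control replicate 3 (0.30), and without the other arrays its difference lay between 0.23 and 0.28. KLF4 kept it only without NME2-induced replicate 2 (0.54) or control replicate 3 (0.42), and without the others its difference was between 0.31 and 0.38. Without NME2-induced replicate 3, EGR1 (0.35) gained the call as higher and FOSL1 (−0.28) as lower. With the mean of its probes MAFF differed by 0.21 and lost the call, as KLF4 did. MAFF also lost it without background correction, where FOS (0.20) gained it as higher and JUNB (−0.19) as lower. With the methods' test in place of limma ATF3, MAFF and KLF4 lost the call. FOS and IER5 gained it as higher, and JUNB (−0.18) gained it as lower.

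The genes that surround the 28 in the pathway were read in the same fit, from a list of 93 genes in 5 groups, of which 73 were tested. For the 19 with several detected probes only the brightest was read, and the others were not compared. None of the 73 passed the adjusted threshold. At an unadjusted p under 0.05, 4 were higher and 9 were lower in NME2-induced cells, and the median difference was −0.02. Thus 5.48% of the neighbours were higher at that level, beside 32.1% of the 28 genes and 7.3% of all genes tested, and 12.3% were lower, beside 3.57% of the 28 genes and 7.17% of all genes tested.

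Upstream, in the ERK cascade, 19 of 28 listed genes were tested, 1 was higher (5.26%) and 3 were lower (15.8%) at an unadjusted p under 0.05, and the median difference was −0.03. ERBB2, a receptor tyrosine kinase, had 8.97, 9.01 and 9.21 in NME2-induced cells, against 8.74, 8.76 and 8.84 in controls (0.28 ± 0.09, SE; adjusted p = 0.25, limma). The ERK-activated kinase RPS6KA3, known as RSK2 (−0.34), the GTPase HRAS (−0.27) and the phosphatase PTPN11, known as SHP2 (−0.20), were the 3 lower ones, with adjusted p-values of 0.258, 0.293 and 0.301 (limma). All 4 had groups that did not overlap. Since 9 of the 28 listed genes were not tested, the cascade was read only in part.

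The group of SRF and CREB partners, with all 10 listed genes tested, had a median of −0.08, with 3 lower, or 30.0%, against 7.17% of all genes tested, and none higher at an unadjusted p under 0.05 (limma). MRTFB, an actin-regulated coactivator of SRF, had 7.32, 7.14 and 7.22 in NME2-induced cells and 7.44, 7.40 and 7.52 in controls, a difference of −0.22 ± 0.08 (SE; adjusted p = 0.301, limma). Its paralog MRTFA, with a difference of −0.20 and an adjusted p of 0.392 (limma), was likewise below the controls on every array. FHL2, a LIM protein that associates with SRF, differed by −0.19, and the histone acetyltransferase EP300 by −0.23. The values of SRF itself, given above, were higher on every NME2-induced array. The ternary complex factors ELK1, ELK3 and ELK4 and CREB1 had overlapping groups. The list also held TCF3 (−0.09), which is not a partner of SRF.

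Of 26 tested immediate early genes outside the set, 3 were higher (11.5%) and 1 was lower (3.85%) at an unadjusted p under 0.05, 65.4% had a higher mean, against 50.3% of all genes tested, and the median was 0.08. MCL1, a survival protein of the BCL2 family with a short-lived mRNA, had 10.00, 10.05 and 10.06 in NME2-induced cells, against 9.60, 9.57 and 9.59 in controls, a difference of 0.45 ± 0.07 (SE; adjusted p = 0.0796, limma). These values are of the brighter of its 2 detected probes. TNFAIP3, an inhibitor of NF-kB signalling, differed by 0.28 and TRIB1, a pseudokinase, by 0.18, with adjusted p-values of 0.313 and 0.334 (limma). ARC, an early gene of neurons, was detected on none of the NME2-induced arrays and on all 3 control arrays. Against the lowest detected signal its mean was at least 1.21-fold lower in NME2-induced cells, a bound that leaves out the spread between arrays. The adjusted p of its fitted difference was 0.109 (limma). Of 13 tested ERK targets and feedback genes outside the set, only the chromatin protein HMGA1, or 7.69%, reached an unadjusted p under 0.05, with 11.16, 11.16 and 11.19 in NME2-induced cells, against 11.34, 11.52 and 11.43 in controls (−0.26, adjusted p = 0.23, limma). HBEGF (0.15), SPRED2 (−0.14) and EREG (−0.16), the next by p in that group, had adjusted p-values of 0.422, 0.553 and 0.572 (limma).

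**Figure D5:**
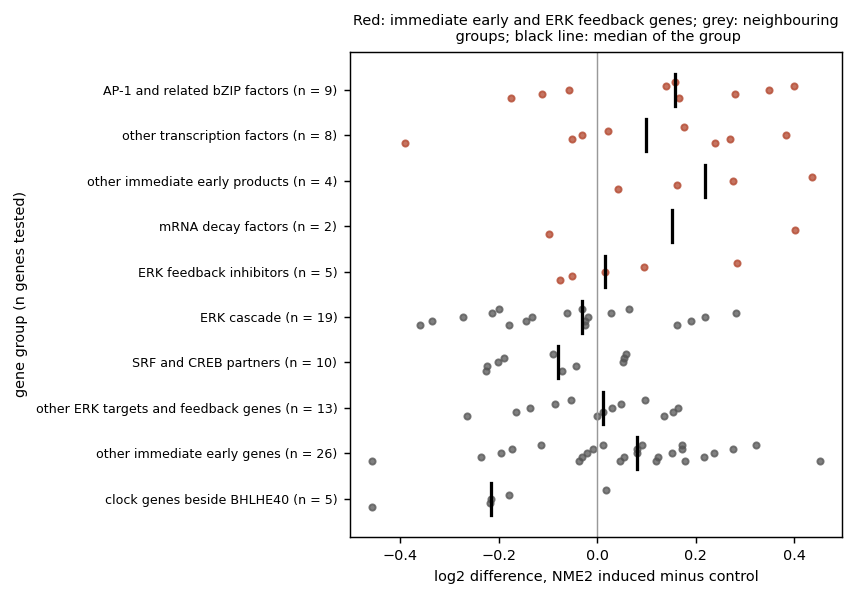
Log2 difference, NME2-induced minus control, of each tested gene (points) by group, with the group median (black line); red groups are the 28 immediate early and ERK feedback genes and grey groups their neighbours, with ARC plotted at its fitted value of −0.46 although it was not detected on NME2-induced arrays. The medians of 4 red groups lie between 0.10 and 0.22 and that of the ERK feedback inhibitors at 0.02, and the grey medians lie between −0.22 and 0.08.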

How the data were processed

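The intensities, deposited on a linear scale for 47231 probes per array with a detection p-value for each probe, come from BeadStudio per the labels, version not given in the sources used here. Both tables deposited by the authors held the same intensities, although 1 is described as not normalized. They had a shared minimum of −44.94, medians of 7.54 to 7.57 and 26.6% to 26.8% of signals at or below 0 on all arrays, and so appear background-subtracted and quantile-normalized already, by steps that no source used here describes. The steps planned for raw signals were kept. The neqc function of limma 3.58.1 in R 4.3.3 (offset 16) made the log2 intensities. The offset understates fold changes of dim probes. Probes detected on at least 3 of 6 arrays with 1 symbol in the platform annotation were kept, and the brightest probe stood for a gene. The lmFit and eBayes functions compared the groups, 3 arrays each, whose number limits the precision. The fit was tested on simulated data. Values on every array are given for genes of the set with an unadjusted p under 0.05, a difference of at least 0.3 or probes of opposite sign, for FOS, EGR1, DUSP6 and SPRY4, and for others chosen after their values were seen. Up to 4 neighbours per group were named by smallest p. Genes and lists were chosen with earlier results of these data known. Slides are not given in the sources used here. The alternatives changed background, offset, filter, variance model, replicate block, probe rule, test, table and arrays.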

Additional observations from a re-analysis of the deposited data

How the results depend on the processing

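The count of genes past the adjusted threshold over all genes, 18 higher and 10 lower in NME2-induced cells, depended on the processing. It was 83 and 65 with normexp without detection p-values, 74 and 49 with an offset of 50 in neqc, 11 and 3 without background correction, 39 and 30 with detection on all 6 arrays, 163 and 137 with a variance trend and robust weights, and 10 and 3 with the methods' t-test, and without the filter on dim probes 5 were lower. Without 1 array the counts were 4 to 9 higher and 1 to 2 lower. Of the 28 tested genes of the set, 2, IER2 and ZFP36, passed as higher with the trend and robust weights (differences of 0.44 and 0.40). Under that setting 163 of 11358 genes passed as higher. None of the set passed under any other setting. At an unadjusted p under 0.05, 2 genes of the set, KLF10 and JUNB, were lower without background correction and with the methods' t-test. The main fit had 1, and these settings called 6.64% and 6.89% of all genes tested lower. Leaving out 1 array gave 5 to 8 of the set higher and 1 to 2 lower. Over all genes tested the shares were then 5.56% to 7.18% higher and 5.34% to 7.13% lower. The smallest count of higher genes in the set, 5, was without control replicate 2. With the mean of the probes, 7 of the set were higher and 1 lower at that level, against 7.12% and 7.55% of all genes tested. Genes of the set with non-overlapping groups numbered 11 higher and 1 lower with the mean of the probes, in place of 13 and 2. Without 1 array they numbered 13 to 14 higher and 2 to 5 lower. The share over all genes was not counted under these settings. With 1 array fewer, groups separate more easily, so these counts do not show that the separation is stable. The median difference of 0.15 was 0.107 with normexp without detection p-values and lay between 0.0881 and 0.173 without 1 array, lowest without NME2-induced replicate 1. Each difference kept its sign under every setting except for 4 genes without 1 array, whose ranges were −0.0143 to 0.0582 for BHLHE40, −0.0654 to 0.0852 for DUSP5, −0.0846 to 0.00334 for KLF6 and −0.0392 to 0.252 for DUSP4. Same-numbered arrays of the groups had residual correlations of 0.0337, −0.0408 and −0.0408. So few arrays cannot show whether the numbers pair samples, and the labels give only the replicate numbers. With the replicate number as a block, the counts over all genes past the adjusted threshold were 4 and 1. At an unadjusted p under 0.05, 8 of the set were then higher and 1 lower, against 6.46% and 6.27% of all genes tested. MAFF lost the call.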

Other observations

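BHLHE40 is part of the circadian clock, and of 7 other clock genes 5 were tested. Their median difference between NME2-induced and control cells was −0.22. At an unadjusted p under 0.05, 1 of the 5 (20%) was lower, against 7.17% of all genes tested, and none was higher. None passed the adjusted threshold (limma). NR1D1, the repressor REV-ERB alpha, had 4.39, 4.88 and 4.57 in NME2-induced cells, against 4.78, 5.41 and 5.01 in controls (−0.46, adjusted p = 0.324, limma), and was detected on 1 of 3 NME2-induced arrays and on 2 of 3 control arrays. The output factor DBP differed by −0.22 and was likewise detected on 1 of 3 NME2-induced arrays and on 2 of 3 control arrays. The period protein PER2 differed by −0.22 and the cryptochrome CRY1 by −0.18. Of DBP, PER2 and CRY1, only CRY1 had groups that did not overlap.

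Among the markers of cell types, the adherens junction protein CDH1 had 7.63, 7.88 and 7.59 in NME2-induced cells, against 7.32, 7.24 and 7.34 in controls (0.40 ± 0.10, SE; adjusted p = 0.173, limma), and the keratin KRT19 differed by −0.23 (adjusted p = 0.301, limma). KRT8 differed by 0.02 and EPCAM by 0.05. Of 5 fibroblast markers COL1A1 (−0.04) and LUM (0.08) were tested.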
